A study of Mus musculus with 18 samples.

Results

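The heat shock chaperones described here are 10 genes of protein folding, chosen by gene symbol from the 62197 genes of the table: the transcription factor gene *Hsf1*, the HSP70 genes *Hspa1a*, *Hspa1b* and *Hspa8*, the HSP110 gene *Hsph1*, the HSP90 genes *Hsp90aa1* and *Hsp90ab1*, the J-domain genes *Dnajb1* and *Dnaja1*, and the mitochondrial chaperonin gene *Hspd1*. All 10 were found as 1 entry each, and all 10 were among the 17875 genes that were tested because 3 or more libraries reached 10 normalized counts. HSP70 proteins hold and release unfolded stretches of protein in cycles driven by ATP, J-domain proteins bring them clients and start ATP hydrolysis, HSP110 proteins exchange the nucleotide, and HSP90 proteins take over part-folded clients such as kinases and steroid receptors. Heat shock factor 1 is kept inactive by chaperones in resting cells, and when unfolded proteins build up it forms trimers and binds repeated short units in the promoters of inducible chaperone genes. Dendritic cells (DCs) also use chaperones when they take up and process antigens for presentation.

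The study asked whether squeezing immature mouse DCs changes their gene expression, and whether this needs cytosolic phospholipase A2 (cPLA_2_, gene *Pla2g4a*), an enzyme that frees arachidonic acid from membranes. Bone marrow cells were grown for 10 days with GM-CSF, and poly(A) RNA was sequenced in 18 libraries, 3 in each of 6 conditions. The cPLA_2_ KO cells came from mice with a conditional *Pla2g4a* allele and Cre under the *Itgax* promoter, which is active in cells that express CD11c, and cPLA_2_ WT cells from control mice. Whether the controls carried Cre, and the age and sex of the donor of each library, are not given in the labels. Nonconfined cPLA_2_ WT and cPLA_2_ KO cells were untreated and collected directly at the end of culture. Confined cPLA_2_ WT and cPLA_2_ KO cells were immature cells held under a roof at a height of 3 µm and were collected 4 h after confinement. The libraries labelled LPS cPLA_2_ WT and LPS cPLA_2_ KO came from nonconfined cells given 100 ng/ml lipopolysaccharide for 30 min according to the labels, a time the study's methods give as 25 min, washed and collected on the next day. Treatment, time after culture and handling therefore differed together between conditions and cannot be told apart.

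Depth was similar enough to count every member well, and from 33027230 to 61300021 reads fell on genes in a library (median 40950397). The lowest, median and highest of the 3 libraries were 34689393, 39851237 and 45020354 reads in nonconfined cPLA_2_ WT, and 36034820, 37116045 and 45021696 in nonconfined cPLA_2_ KO. Confined cPLA_2_ WT libraries had 33592725, 42049558 and 45769637 reads and confined cPLA_2_ KO libraries 33027230, 33672070 and 39400286. Those labelled LPS cPLA_2_ WT had 52116837, 52482280 and 61300021 reads and those labelled LPS cPLA_2_ KO 39609637, 43169041 and 45160523. Values below are normalized counts, reads divided by a size factor for each library. A figure legend of the study calls the replicates biological, but the labels do not say that they came from separate mice, and p-values then measure only the spread between these samples.

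*Pla2g4a* (GSMG0002495, GRCm39 chromosome 1, 149705372 to 149837041), the targeted gene, was read first as a check of the genotype labels. It was present at 697, 686 and 770 normalized counts in replicates 1, 2 and 3 of nonconfined cPLA_2_ WT and at 548, 542 and 533 in nonconfined cPLA_2_ KO, and at 1369, 1430 and 1321 in confined cPLA_2_ WT and 923, 871 and 920 in confined cPLA_2_ KO. In both pairs every cPLA_2_ KO library was below every cPLA_2_ WT library, although reads remained. The libraries labelled LPS cPLA_2_ WT had 1005, 969 and 967 normalized counts and those labelled LPS cPLA_2_ KO had 1065, 1032 and 1028, so the order was the opposite of the labels. Among the LPS libraries the values go against the genotype labels, and directions drawn from these labels carry that doubt. The Y chromosome genes *Ddx3y*, *Eif2s3y* and *Kdm5d*, chosen after seeing the data, were read as a second check. *Ddx3y* was at 0 to 3.05 normalized counts in all nonconfined and confined cPLA_2_ WT libraries and at 874 or more in all nonconfined and confined cPLA_2_ KO libraries, so genotype and donor sex cannot be told apart there. It was at 1271, 0 and 662 in the libraries labelled LPS cPLA_2_ WT and at 2.12, 1476 and 783 in those labelled LPS cPLA_2_ KO, and *Eif2s3y* (799, 1.83 and 448, then 2.12, 863 and 505) and *Kdm5d* (154, 1.83 and 91.4, then 0, 152 and 77.7) were high and low in the same libraries. By these genes each library labelled LPS cPLA_2_ WT had a close match among those labelled LPS cPLA_2_ KO, replicate 1 with 2, replicate 2 with 1 and replicate 3 with 3.

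The 10 genes lie on 8 chromosomes of GRCm39. *Hsf1* (GSMG0018522, chromosome 15, 76361562 to 76386113, plus strand) has 13 exons in its GENCODE canonical transcript. *Hspa1a* (GSMG0024662, chromosome 17, 35188171 to 35191133) and *Hspa1b* (GSMG0024661, chromosome 17, 35175405 to 35178214) are neighbours on the minus strand with 1 exon each, whereas *Hspa8* (GSMG0056296, chromosome 9, 40712556 to 40716504, plus strand) has 9. *Hsph1* (GSMG0043374, chromosome 5, 149537752 to 149559801, minus strand) has 18 exons. The HSP90 genes *Hsp90aa1* (GSMG0033689, chromosome 12, 110657039 to 110662831) and *Hsp90ab1* (GSMG0034729, chromosome 17, 45878701 to 45884198) are on the minus strand with 11 exons each. *Dnajb1* (GSMG0053627, chromosome 8, 84334804 to 84339286) has 3 exons and *Dnaja1* (GSMG0050152, chromosome 4, 40722468 to 40737149) has 9, both on the plus strand. *Hspd1* (GSMG0007223, chromosome 1, 55116992 to 55127402, minus strand) has 12 exons. Each entry overlapped the GENCODE gene of the same symbol.

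In resting cells the constitutive chaperones were far more abundant per length than the inducible pair. In nonconfined cPLA_2_ WT cells, levels in normalized counts per kb of transcript (mean ± SD, n = 3) were 32722 ± 49.6 for *Hsp90ab1*, the constitutive HSP90, and 16976 ± 165 for *Hspa8*, the constitutive HSP70. *Hsp90aa1*, the stress-inducible HSP90, and *Hspd1*, the HSP60 that folds proteins in the mitochondrial matrix, came next at 3995 ± 82.4 and 3973 ± 185 per kb, with overlapping libraries. *Hsph1* was at 399 ± 4.06, *Dnajb1* at 259 ± 16.7, *Hsf1* at 212 ± 1.19 and *Dnaja1* at 192 ± 18.6 per kb. The stress-inducible HSP70 genes were lowest, *Hspa1b* at 101 ± 2.36 and *Hspa1a* at 50.4 ± 6.25 per kb. This pair is nearly identical, and how reads that match both were treated is not given in the sources used here. If such reads were left out, the levels and ranks of the pair are too low in every condition. *Hsp90ab1* and *Hspa8* led in all 6 conditions. In nonconfined cPLA_2_ KO cells *Hspd1* (3537 ± 171) and *Hsp90aa1* (3441 ± 55.3) again overlapped, as did *Dnajb1* (230 ± 4.81) and *Hsf1* (227 ± 18.7), and *Hsf1* with *Dnaja1* (196 ± 11.4). In confined cPLA_2_ WT cells *Hspa1b* (367 ± 5.56 per kb) and *Hspa1a* (314 ± 4.98) had moved up to follow *Hspd1* (2591 ± 89.0), above *Hsph1* at 288 ± 8.65, with no overlap between these neighbours, and *Hsf1* (173 ± 9.75) and *Dnaja1* (193 ± 14.6) were last with overlapping libraries. In confined cPLA_2_ KO cells *Hsph1* (305 ± 20.8) was above *Hspa1b* (238 ± 29.8), and *Dnajb1* (212 ± 10.0), *Hspa1a* (207 ± 8.13) and *Hsf1* (203 ± 12.6) overlapped in part with *Hspa1b* and with each other, with *Dnaja1* last at 136 ± 10.8. In the libraries labelled LPS cPLA_2_ WT *Hspa1b* was at 1265 ± 51.7 and *Hspa1a* at 880 ± 96.8 per kb, and *Hsph1* (444 ± 34.4) and *Dnajb1* (436 ± 39.5) overlapped.

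The members took a share of the library that was highest in nonconfined cPLA_2_ WT and lowest in confined cells. Together they held 0.461%, 0.468% and 0.466% of the normalized counts in the nonconfined cPLA_2_ WT libraries and 0.407%, 0.411% and 0.405% in nonconfined cPLA_2_ KO. In confined cells the shares were 0.300%, 0.297% and 0.295% in cPLA_2_ WT and 0.315%, 0.303% and 0.309% in cPLA_2_ KO, below every nonconfined library. The libraries labelled LPS cPLA_2_ WT had 0.375%, 0.442% and 0.407% and those labelled LPS cPLA_2_ KO 0.438%, 0.383% and 0.408%, between the confined and the nonconfined cPLA_2_ WT libraries and overlapping the nonconfined cPLA_2_ KO ones. The sum follows *Hsp90ab1* and *Hspa8*, which are by far the most abundant members.

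**Figure D1:**
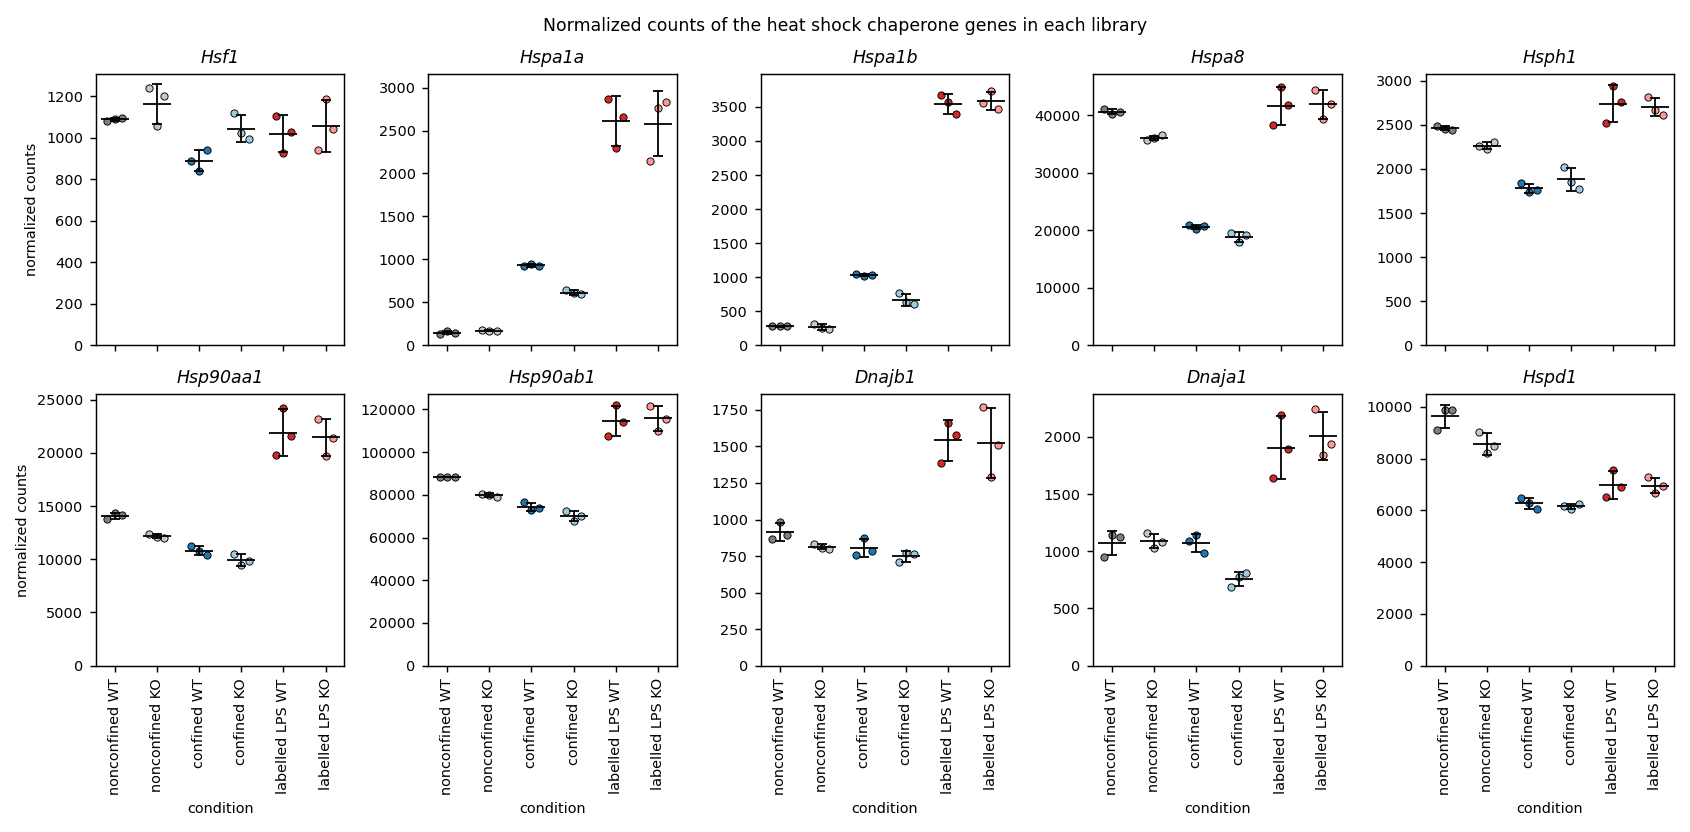
Normalized counts of the 10 genes in each of the 18 libraries (points), with the mean and SD of the 3 libraries of each condition (bars), every vertical axis starting at 0. *Hspa1a* and *Hspa1b* were low in nonconfined cells (132 to 177 and 244 to 314 normalized counts), higher in confined cells and highest in the libraries labelled LPS, while *Hspa8* was lowest in confined cells.

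Confinement of cPLA_2_ WT cells split the chaperones. The inducible HSP70 genes *Hspa1a* and *Hspa1b* rose 6.22-fold and 3.62-fold, whereas the constitutive HSP70, HSP110, both HSP90 genes, the HSP60 gene and *Hsf1* fell. Of the 10 members, 2 were higher and 6 were lower at an adjusted p under 0.05 in limma, against 28.2% of all genes tested that were higher and 28.4% that were lower. The median change of the members was -0.27 on the log2 scale and that of all genes tested -0.01. In confined cPLA_2_ KO cells the counts were also 2 higher and 6 lower, against 22.8% and 23.4% of all genes, with a median of -0.23 for the members and 0.01 for all genes. The 6 lower genes were not the same in name: *Hsf1* was among them in cPLA_2_ WT and *Dnaja1* in cPLA_2_ KO cells. In these bulk libraries, fewer cells of a type and less RNA per cell cannot be told apart.

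*Hsf1*, the main activator of chaperone genes under heat and other protein stress, was present at 1084, 1089 and 1096 normalized counts in nonconfined cPLA_2_ WT and at 887, 843 and 943 in confined cPLA_2_ WT cells. All 3 confined libraries were below the nonconfined ones, and *Hsf1* fell by 0.29 on the log2 scale (standard error 0.08, adjusted p = 0.00542). In cPLA_2_ KO cells it was at 1239, 1057 and 1200 before and 1118, 1025 and 993 after confinement, with nonconfined replicate 2 inside the confined range. The change there was -0.16 (95% interval -0.33 to 0.02, adjusted p = 0.141), and without nonconfined cPLA_2_ KO replicate 2 it was -0.22 (adjusted p = 0.0469). The activity of HSF1 is set on the protein and is not measured by its RNA.

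*Hspa1a* encodes an HSP70 that many cells make in quantity only under stress. It was present at 132, 169 and 148 normalized counts in nonconfined cPLA_2_ WT and at 922, 948 and 924 in confined cPLA_2_ WT cells. The confined libraries lay close together and far above all nonconfined ones, a rise of 2.64 on the log2 scale (standard error 0.10, adjusted p = 2.83e-15). The cPLA_2_ KO values were 177, 168 and 171 before and 642, 609 and 595 after confinement. Again the conditions did not overlap, but every confined cPLA_2_ KO library was below every confined cPLA_2_ WT library. The rise in cPLA_2_ KO was 1.83 (3.57-fold, standard error 0.10, adjusted p = 4.24e-12).

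*Hspa1b*, the adjacent gene for a nearly identical HSP70, had 282, 278 and 291 normalized counts in nonconfined cPLA_2_ WT and 1041, 1011 and 1034 in confined cPLA_2_ WT cells. The cPLA_2_ KO libraries had 314, 249 and 244 before and 762, 637 and 603 after confinement. As with *Hspa1a*, both genotypes were higher when confined, with no overlap, and the confined cPLA_2_ KO libraries were below the confined cPLA_2_ WT ones. In cPLA_2_ WT cells *Hspa1b* rose by 1.86 (standard error 0.09, adjusted p = 9.56e-14), while cPLA_2_ KO cells had a rise of 1.31 (2.48-fold, standard error 0.09, adjusted p = 8.72e-11).

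*Hspa8*, the constitutive HSP70 that also serves clathrin uncoating and chaperone-mediated autophagy, was present at 41022, 40234 and 40664 normalized counts in nonconfined cPLA_2_ WT and at 20920, 20163 and 20725 in confined cPLA_2_ WT cells. In cPLA_2_ KO cells it was at 35760, 36012 and 36517 before and 19548, 17893 and 19269 after confinement. All confined libraries of both genotypes were far below all nonconfined ones. On the log2 scale *Hspa8* fell by 0.98 among cPLA_2_ WT libraries (0.507 of the nonconfined level, standard error 0.05, adjusted p = 7.07e-13), and among cPLA_2_ KO libraries it fell by 0.93 (0.523 of it, standard error 0.05, adjusted p = 4.79e-12). *Hsph1*, a nucleotide exchange factor for HSP70, had 2491, 2451 and 2445 normalized counts in nonconfined and 1843, 1743 and 1759 in confined cPLA_2_ WT cells, and 2255, 2226 and 2304 and then 2025, 1847 and 1775 in cPLA_2_ KO cells. The confined libraries were lower in each genotype without overlap, and the decrease was larger in size in cPLA_2_ WT (-0.47, adjusted p = 5.02e-07) than in cPLA_2_ KO cells (-0.27, adjusted p = 0.000684), a difference that did not pass the test given further on.

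Both HSP90 genes fell, by less than *Hspa8*. *Hsp90aa1* was at 13789, 14365 and 14149 normalized counts in nonconfined and 11271, 10742 and 10383 in confined cPLA_2_ WT cells, and at 12362, 12094 and 11982 and then 10482, 9441 and 9855 in cPLA_2_ KO cells. *Hsp90ab1* was at 88586, 88441 and 88318 and then 76642, 72846 and 73721 in cPLA_2_ WT, and at 80536, 80124 and 78899 and then 72232, 67643 and 70215 in cPLA_2_ KO cells. In all 4 of these comparisons every confined library was below every nonconfined one. *Hsp90aa1* fell by 0.39 in cPLA_2_ WT (adjusted p = 2.15e-05) and by 0.29 in cPLA_2_ KO cells (adjusted p = 0.00068), and *Hsp90ab1* by 0.25 (adjusted p = 0.000106) and by 0.19 (adjusted p = 0.00224).

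The J-domain genes differed from each other. *Dnajb1*, a heat-inducible partner of HSP70, had 868, 981 and 896 normalized counts in nonconfined and 755, 876 and 788 in confined cPLA_2_ WT cells, and 832, 807 and 800 and then 707, 772 and 764 in cPLA_2_ KO cells. The cPLA_2_ WT libraries overlapped and the cPLA_2_ KO libraries did not. Its change did not pass the test in either genotype (-0.18, 95% interval -0.38 to 0.01, adjusted p = 0.097 in cPLA_2_ WT, and -0.12, -0.31 to 0.07, adjusted p = 0.3 in cPLA_2_ KO), although without confined cPLA_2_ WT replicate 2 the change in cPLA_2_ WT was -0.25 (adjusted p = 0.0499), with TMM scaling -0.23 (adjusted p = 0.0395), and with the libraries labelled LPS left out of the fit the adjusted p was 0.0314. *Dnaja1*, a J-domain protein that is farnesylated and works with HSC70, was at 952, 1138 and 1125 in nonconfined and 1092, 1145 and 986 in confined cPLA_2_ WT cells. These overlapped fully, with a change of 0.00 (95% interval -0.20 to 0.21, adjusted p = 0.974). In cPLA_2_ KO cells *Dnaja1* was at 1157, 1031 and 1083 before and 690, 772 and 807 after confinement, so all confined libraries were lower. It fell by 0.53 there (standard error 0.10, adjusted p = 0.000163).

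*Hspd1*, the HSP60 chaperonin, was present at 9109, 9886 and 9884 normalized counts in nonconfined cPLA_2_ WT and at 6489, 6285 and 6058 in confined cPLA_2_ WT cells. With cPLA_2_ KO cells it was at 9016, 8196 and 8496 and then at 6184, 6054 and 6237. Confined libraries of both genotypes lay in nearly the same narrow range, below every nonconfined library. *Hspd1* fell by 0.62 among cPLA_2_ WT libraries (0.652 of the nonconfined level, standard error 0.05, adjusted p = 2.77e-09), and the change among cPLA_2_ KO libraries was -0.48 (standard error 0.05, adjusted p = 2.86e-07).

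**Figure D2:**
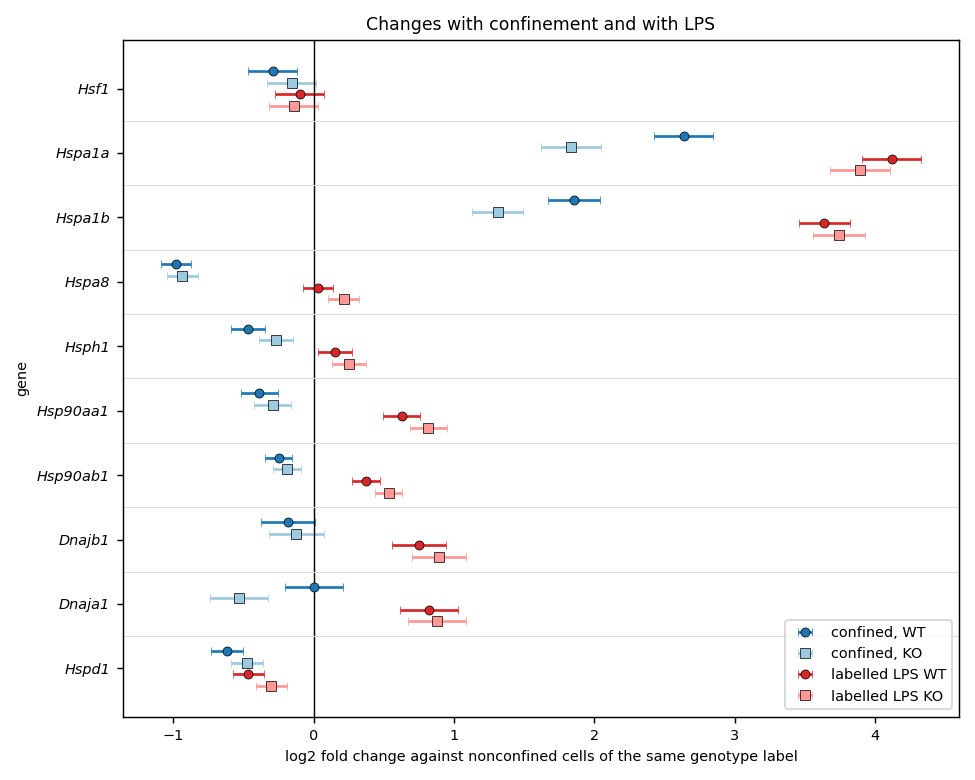
Log2 fold change of the 10 genes against nonconfined cells of the same genotype label (points, with 95% intervals as lines) for confined cPLA_2_ WT, confined cPLA_2_ KO and the libraries labelled LPS cPLA_2_ WT and LPS cPLA_2_ KO. *Hspa1a* and *Hspa1b* lie at 1.31 to 4.12 and *Hspd1* is below 0 in all 4, whereas *Hspa8* is near -0.98 and -0.93 in confined cells and at 0.03 and 0.21 with LPS, both of which turn negative when all libraries are scaled to the same total.

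Directions under confinement did not depend on the scaling for the members that passed the test. With all libraries scaled to the same total, the median change of all genes was -0.23 for cPLA_2_ WT and -0.02 for cPLA_2_ KO cells, and no called direction of a member turned, while *Dnaja1* in cPLA_2_ WT cells went from 0.00 to -0.22 (adjusted p = 0.0824). Under that scaling *Hspa1a* rose by 2.41 and *Hspa1b* by 1.63 in cPLA_2_ WT cells, *Hspa8* fell by 1.21, and *Dnajb1* in cPLA_2_ WT passed the test as well (-0.41, adjusted p = 0.0016), as did *Hsf1* in cPLA_2_ KO cells (-0.19, adjusted p = 0.0468).

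Markers of cell types were read beside these changes, since such cultures also give rise to granulocytes and macrophages. The methods state that nonadherent granulocytes and firmly adherent macrophages were left out, and that the semiadherent cells, mostly positive for CD11c, were taken as DCs. The dendritic cell list (10 of 10 genes in the table, *Cd74* most abundant, no gene without reads) summed to 475298, 480055 and 500702 normalized counts in the nonconfined cPLA_2_ WT libraries, lowest to highest, and to 418169, 428938 and 448728 in confined cPLA_2_ WT, with *Flt3* and *Cd209a* low. The cPLA_2_ KO libraries summed to 568416, 596873 and 605573 and then to 406637, 421546 and 421838. Every gene of the list had reads in every condition. The neutrophil list (11 of 11, led by *S100a9*, none at 0) was at 240652, 243962 and 245673 in nonconfined and 145349, 147540 and 154795 in confined cPLA_2_ WT cells, and at 334080, 359472 and 371572 and then 331840, 334916 and 347689 in cPLA_2_ KO cells. Its confined cPLA_2_ WT sums were lower than the nonconfined ones without overlap, while the cPLA_2_ KO sums overlapped, with *Mpo* lower (2802 and then 1111, means) and *Cxcr2* higher (735 and then 874). The eosinophil list (6 of 8 in the table, led by *Prg2*, none at 0) went from 27985, 28102 and 28351 to 7070, 7143 and 7654 in cPLA_2_ WT, and from 63640, 65566 and 68025 to 16005, 16530 and 16942 in cPLA_2_ KO cells. The list of mast cells or basophils (8 of 8, led by *Cpa3*, none at 0) went from 9165, 9189 and 9283 to 3350, 3482 and 3513 in cPLA_2_ WT, and from 13451, 13600 and 14093 to 5994, 6217 and 6237 in cPLA_2_ KO cells. The eosinophil and mast cell sums were lower in all confined libraries and higher in cPLA_2_ KO than in cPLA_2_ WT libraries, but not every gene followed its sum: *Siglecf* had means of 1402 and then 1448 in cPLA_2_ WT and of 943 and then 1103 in cPLA_2_ KO cells, and *Ccr3* of 85.4 and then 189.7 and of 229 and then 61.3. Their part in the changes of the chaperones was not tested.

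The remaining marker lists were smaller or moved less. The T or NK cell list (6 of 6, *Cd3g* most abundant, *Ncr1* at 0 in confined cells) was at 2451, 2488 and 2511 in nonconfined and 698, 787 and 821 in confined cPLA_2_ WT, and at 2868, 3093 and 3178 and then 1023, 1123 and 1243 in cPLA_2_ KO libraries. *Cd3g* alone had means of 2306 and then 700 in cPLA_2_ WT and of 2855 and then 1030 in cPLA_2_ KO libraries, so it made up most of this sum. The macrophage list (10 of 10, led by *Csf1r*, with *Cd163* at 0 in confined cPLA_2_ KO) summed to 54946, 55583 and 56903 in nonconfined and 52880, 53594 and 54340 in confined cPLA_2_ WT, and to 59779, 62123 and 64339 and then 55318, 58463 and 60424 in cPLA_2_ KO libraries. The erythroid list (4 of 6 in the table, led by *Klf1*) was between 1.72 and 29.8, with 1 to 3 of its genes without a read in these conditions. All of these sums are in normalized counts, and their part in the results was likewise not tested.

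The genotypes responded differently to confinement in 3 members. The rises of *Hspa1a* and *Hspa1b* were smaller in cPLA_2_ KO than in cPLA_2_ WT cells, and *Dnaja1* fell in cPLA_2_ KO while its cPLA_2_ WT libraries overlapped. In the test of the difference between the changes, the confinement change in cPLA_2_ KO minus that in cPLA_2_ WT, 0 members were higher and 3 were lower, against 10.2% and 15.6% of all genes tested, with a median of 0.06 for the members and 0.05 for all genes. In limma 4 members and 6418 of all genes had an unadjusted p under 0.05, 3 of these members being those called lower. Of the members edgeR and DESeq2 each called 0 higher and 3 lower, where they called 4569 and 4913 of all genes in either direction. The difference was -0.80 for *Hspa1a* (standard error 0.14, 95% interval -1.10 to -0.50, adjusted p = 0.000201), -0.54 for *Hspa1b* (standard error 0.12, -0.80 to -0.29, adjusted p = 0.00219) and -0.53 for *Dnaja1* (standard error 0.14, -0.83 to -0.24, adjusted p = 0.00688). For the other members the difference did not pass the test, among them *Hspa8* (0.05, 95% interval -0.11 to 0.20) and *Hsph1* (0.20, 0.03 to 0.37, adjusted p = 0.0784), which without confined cPLA_2_ KO replicate 3 was 0.24 (adjusted p = 0.0452). With all libraries scaled to the same total the median difference of all genes was 0.24, the differences were -0.61 for *Hspa1a* and -0.36 for *Hspa1b*, both past the test, *Dnaja1* was no longer past it (-0.35, adjusted p = 0.0802), and 6 members were called higher, with no change of sign among the 10, while the number of all genes called higher went from 1823 to 4741. Marker sums also changed unequally, the neutrophil sums being lower with confinement in cPLA_2_ WT but overlapping in cPLA_2_ KO libraries, and the dendritic cell sums lower by more in cPLA_2_ KO than in cPLA_2_ WT, and their part in the result was not tested.

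Without confinement 2 of the 10 members passed the test between the genotypes. In nonconfined cells *Hspa8* and *Hsp90aa1* were slightly lower in cPLA_2_ KO than in cPLA_2_ WT, and the inducible HSP70 genes overlapped between the genotypes. Of the 10 members 0 were higher and 2 lower in cPLA_2_ KO, against 4.78% and 4.11% of all genes tested, with a median of -0.14 for the members and 0.00 for all genes. In limma 5 members and 4005 of all genes had an unadjusted p under 0.05. The edgeR fit called 3 members and 1576 genes and DESeq2 4 members and 2038 genes, all of these members lower. *Hsp90aa1* fell by 0.22 (standard error 0.06, adjusted p = 0.037) and *Hspa8* by 0.17 (standard error 0.05, adjusted p = 0.0436), each with every cPLA_2_ KO library below every cPLA_2_ WT library. Both calls were fragile, although the changes stayed about as large. *Hspa8* missed the threshold when any 1 of the 6 nonconfined libraries was left out, with adjusted p of 0.12, 0.099 and 0.119 without cPLA_2_ WT replicates 1, 2 and 3 and of 0.135, 0.0677 and 0.0969 without cPLA_2_ KO replicates 1, 2 and 3. For *Hsp90aa1* these were 0.0686, 0.124 and 0.107, then 0.0844, 0.0621 and 0.119. In these fits the change lay between -0.16 and -0.18 for *Hspa8* and between -0.20 and -0.23 for *Hsp90aa1*. *Hspd1* (-0.17, adjusted p = 0.0575) and *Hsp90ab1* (-0.15, adjusted p = 0.0547) were just outside, and without cPLA_2_ WT replicate 1 *Hspd1* passed (-0.21, adjusted p = 0.0453). *Hspa1a* differed by 0.20 (95% interval -0.01 to 0.42) and *Hspa1b* by -0.09 (-0.27 to 0.10). The eosinophil, neutrophil, mast cell, dendritic cell, macrophage and T or NK cell sums given above were higher in nonconfined cPLA_2_ KO than cPLA_2_ WT libraries without overlap. Not every gene followed its sum. In nonconfined cPLA_2_ KO the means were lower for *Itgax* (5175 against 6281), *Elane* (848 against 968) and *Prtn3* (1172 against 1402), among others. The part of these sums in the result was not tested.

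Among confined cells, cPLA_2_ KO libraries had less of both inducible HSP70 transcripts and of *Dnaja1*, and more *Hsf1*. Here 1 member was higher and 3 were lower in cPLA_2_ KO, against 18.8% and 20.6% of all genes tested, with a median of -0.11 for the members and 0.04 for all genes. *Hspa1a* fell by 0.60 (standard error 0.10, adjusted p = 6.5e-05), *Hspa1b* by 0.63 (standard error 0.09, adjusted p = 5.35e-06) and *Dnaja1* by 0.51 (standard error 0.10, adjusted p = 0.000315), and each of the 3 confined cPLA_2_ KO libraries was below each confined cPLA_2_ WT library. In *Hsf1*, where the libraries did not overlap either, cPLA_2_ KO was 0.23 higher (standard error 0.08, adjusted p = 0.0344), a call that was lost without confined cPLA_2_ WT replicate 1 (adjusted p = 0.0752) or 2 (0.131) and without confined cPLA_2_ KO replicate 1 (0.147) or 2 (0.056), and in edgeR (0.0685). In these fits the change of *Hsf1* lay between 0.18 and 0.24. With all libraries scaled to the same total, the median of all genes moved to 0.19 and the called members kept their sign, while *Hspa8*, *Hsp90aa1*, *Hsp90ab1*, *Dnajb1* and *Hspd1*, which had not passed, changed from negative to positive. The neutrophil, eosinophil, mast cell, macrophage and T or NK cell sums were higher in every confined cPLA_2_ KO than in every confined cPLA_2_ WT library. Some genes went against their sum, among them *Siglecf* (means of 1103 against 1448) and *Fcgr1* (1424 against 3293), and the part of these sums in the result was not tested. Nonconfined and confined cPLA_2_ KO libraries share the Y chromosome genes that cPLA_2_ WT libraries lack, so a difference between donors and one between genotypes cannot be told apart.

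The inducible pair differed most between LPS-treated and nonconfined cells. In the libraries labelled LPS cPLA_2_ WT *Hspa1a* and *Hspa1b* rose 17.4-fold and 12.5-fold over nonconfined cPLA_2_ WT cells, the J-domain genes and HSP90 genes rose by less, and *Hspd1* fell. Of the members 7 were higher and 1 lower, against 33.4% and 29.4% of all genes tested, with a median of 0.50 for the members and 0.03 for all genes. Against nonconfined cPLA_2_ KO cells the libraries labelled LPS cPLA_2_ KO had 8 higher and 1 lower, against 33.4% and 30.1%, with a median of 0.68 for the members and 0.02 for all genes. With all libraries scaled to the same total, 4 members were higher and 5 lower under the cPLA_2_ WT label (3182 and 9294 of all genes). Under the cPLA_2_ KO label 5 were higher and 4 lower with that scaling (3271 and 9190 of all genes). These comparisons use the nonconfined libraries that the confined cells were also compared with. The dendritic cell sums, given further on for the LPS libraries, were higher and the T or NK cell sums far lower than in nonconfined cPLA_2_ WT libraries. The latter sum was mostly *Cd3g* (means of 404 under the LPS cPLA_2_ WT label against 2306), while *Cd8a* was higher (23.1 against 7.75). In the dendritic cell list *Cd209a* was lower (12.1 against 154). The neutrophil sums were higher than in nonconfined cPLA_2_ WT but lower than in nonconfined cPLA_2_ KO libraries, and the part of these sums in the result was not tested.

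*Hspa1a* was present at 2869, 2302 and 2663 normalized counts in the libraries labelled LPS cPLA_2_ WT and at 2151, 2762 and 2829 in those labelled LPS cPLA_2_ KO. *Hspa1b* was at 3678, 3566 and 3391 and at 3553, 3729 and 3468. All 6 LPS libraries were far above all 6 nonconfined libraries, and the labels overlapped with each other. The rise of *Hspa1a* was 4.12 under the cPLA_2_ WT and 3.89 under the cPLA_2_ KO label (standard error 0.10 in both, adjusted p = 5.82e-19 and 1.61e-18), and that of *Hspa1b* 3.64 and 3.74 (standard error 0.09 in both, adjusted p = 3.97e-19 and 2.51e-19). With both labels pooled the rises were 4.00 for *Hspa1a* and 3.69 for *Hspa1b*.

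*Hspa8* was at 38269, 44846 and 41722 normalized counts in the libraries labelled LPS cPLA_2_ WT and at 44348, 39363 and 42022 in those labelled LPS cPLA_2_ KO. The first group overlapped the nonconfined cPLA_2_ WT libraries and the second lay above the nonconfined cPLA_2_ KO ones. Its change was 0.03 under the cPLA_2_ WT label (adjusted p = 0.625) and 0.21 under the cPLA_2_ KO label (adjusted p = 0.00116). *Hsp90aa1* was at 19840, 24254 and 21549 and at 23212, 19694 and 21421, and *Hsp90ab1* at 107693, 121874 and 114242 and at 121620, 110109 and 115533. All of these were above every nonconfined library. *Hsp90aa1* rose by 0.63 (adjusted p = 1.54e-08) and 0.82 (adjusted p = 2.33e-10), and *Hsp90ab1* by 0.37 (adjusted p = 4.82e-07) and 0.53 (adjusted p = 1.84e-09), where *Hsp90ab1* under the cPLA_2_ WT label turned to -0.14 with all libraries scaled to the same total.

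*Dnajb1* had 1388, 1661 and 1575 normalized counts in the libraries labelled LPS cPLA_2_ WT and 1767, 1293 and 1511 in those labelled LPS cPLA_2_ KO, and *Dnaja1* 1639, 2188 and 1890 and 2248, 1843 and 1938. Every LPS library was above every nonconfined library for both genes. *Dnajb1* rose by 0.75 (adjusted p = 3.35e-07) and 0.89 (adjusted p = 2.38e-08), and *Dnaja1* by 0.82 (adjusted p = 2.42e-07) and 0.88 (adjusted p = 9.52e-08). *Hspd1* was at 6504, 7558 and 6900 and at 7269, 6666 and 6928, below every nonconfined library, and fell by 0.46 (adjusted p = 1.45e-07) and 0.30 (adjusted p = 4.92e-05). *Hsph1* was at 2519, 2943 and 2765 and at 2813, 2666 and 2616, just above the nonconfined ranges. It rose by 0.15 under the cPLA_2_ WT label (adjusted p = 0.0264), a call lost without nonconfined cPLA_2_ WT replicate 2 (0.0616) or 3 (0.0652) or the library labelled LPS cPLA_2_ WT replicate 2 (0.16) or 3 (0.0692), and by 0.25 under the cPLA_2_ KO label (adjusted p = 0.000613). The rise of *Hsph1* under the cPLA_2_ WT label was also lost with TMM (0.09, adjusted p = 0.206), edgeR (0.11, 0.108) and DESeq2 (0.13, 0.0626). *Hsf1* was at 1104, 928 and 1028 and at 943, 1189 and 1043, overlapping the nonconfined libraries, with changes of -0.10 (adjusted p = 0.323) and -0.14 (adjusted p = 0.147). Under the cPLA_2_ KO label it passed at -0.21 without nonconfined cPLA_2_ KO replicate 2 (adjusted p = 0.0454) and at -0.23 without the library labelled LPS cPLA_2_ KO replicate 2 (adjusted p = 0.0239), and with TMM scaling (adjusted p = 0.0352).

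Scaling mattered more here than under confinement. With all libraries scaled to the same total, the median change of all genes was -0.47 under the cPLA_2_ WT and -0.44 under the cPLA_2_ KO label, and the sign turned for *Hspa8* (-0.48 and -0.27) and *Hsph1* (-0.36 and -0.23) under both labels and for *Hsp90ab1* under the cPLA_2_ WT label, while *Hspa1a* (3.61 and 3.41), *Hspa1b* (3.13 and 3.26), *Dnajb1* (0.24 and 0.41) and *Dnaja1* (0.31 and 0.40) still rose and *Hspd1* still fell, and *Hsf1* now fell too (-0.61 and -0.62). Under this scaling the rises of *Hsp90aa1* under the cPLA_2_ WT label (0.12, adjusted p = 0.134) and of *Hsp90ab1* under the cPLA_2_ KO label (0.05, adjusted p = 0.326) no longer passed the test. With the labels pooled, the same scaling gave -0.37 for *Hspa8*, -0.29 for *Hsph1* and -0.04 for *Hsp90ab1*, against 0.12, 0.20 and 0.45 with the size factors.

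Between the LPS labels no difference passed the test, and the libraries were matched across the labels by the Y chromosome genes, so this says little about the genotypes. All 10 members overlapped, with changes between -0.03 and 0.08 in the libraries labelled LPS cPLA_2_ KO minus those labelled LPS cPLA_2_ WT. Of the members 0 were higher and 0 lower, against 0.0% and 0.0% of all genes tested, with a median of 0.00 for both. In limma 890 of the 17875 genes and 0 members had an unadjusted p under 0.05, and edgeR and DESeq2 each called 0 genes. The eosinophil sums, at 23473, 31636 and 40025 normalized counts under the cPLA_2_ WT and 23262, 32333 and 39580 under the cPLA_2_ KO label, differed widely within each label. The mast cell sums were 8520, 9170 and 9258 and then 8616, 9351 and 9655, the neutrophil sums 291745, 293364 and 309783 and then 278283, 295599 and 313423, and the dendritic cell sums 603063, 646999 and 719185 and then 602724, 664084 and 703592. T or NK cell sums were 457, 479 and 486 and then 429, 522 and 523, those of macrophages 53993, 57705 and 63607 and then 52216, 57268 and 60972, and those of erythroid genes 9.15, 14.9 and 16.2 and then 8.49, 9.15 and 9.87. Their part in the results was not tested.

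Set directly against the libraries labelled LPS, confined cells had less of nearly every chaperone transcript. The eosinophil, mast cell and dendritic cell sums given above were also lower in confined libraries, in both genotypes as labelled. Not every gene followed its sum. *Siglecf* had means of 1448 and 1103 in confined cPLA_2_ WT and cPLA_2_ KO against 950 and 959 with LPS. *Cd209a* had 25.4 and 34.9 against 12.1 and 8.35, and there were others. Neutrophil sums were lower in confined cPLA_2_ WT but higher in confined cPLA_2_ KO than in the libraries with the same label and LPS, T or NK cell sums were higher in confined libraries of both, and the part of these sums in the result was not tested. Here cPLA_2_ WT and cPLA_2_ KO mean the LPS libraries as labelled. In cPLA_2_ WT 0 members were higher and 9 lower in confined cells, against 21.6% and 27.2% of all genes tested, with a median of -0.88 for the members and -0.02 for all genes. In cPLA_2_ KO 0 were higher and 9 lower, against 28.1% and 30.6%, with a median of -1.06 and 0.02. In limma 10 members in cPLA_2_ WT and 9 in cPLA_2_ KO had an unadjusted p under 0.05, as did 9666 and 11153 of all genes. Of the members edgeR and DESeq2 each called 0 higher, and 8 lower in cPLA_2_ WT and 9 lower in cPLA_2_ KO, where edgeR called 8745 and 10385 and DESeq2 8890 and 10496 of all genes. *Hspa1a* changed by -1.48 in cPLA_2_ WT (adjusted p = 8.85e-11) and by -2.06 in cPLA_2_ KO, and *Hspa1b* by -1.78 (adjusted p = 4.11e-13) and -2.43. *Hspa8* changed by -1.01 (adjusted p = 8.59e-13) and -1.15, *Hsp90aa1* by -1.01 (adjusted p = 1.92e-11) and -1.11, *Dnajb1* by -0.93 (adjusted p = 2.9e-08) and -1.02, and *Dnaja1* by -0.82 (adjusted p = 5.57e-07) and -1.41. *Hspd1* changed by -0.15 (adjusted p = 0.024) and -0.17 (adjusted p = 0.00858), and *Hsf1*, with overlapping libraries in both, by -0.19 (adjusted p = 0.0637) and -0.01 (adjusted p = 0.907). In cPLA_2_ WT the *Hspd1* call was lost without confined cPLA_2_ WT replicate 2 (0.052) or 3 (0.102) or the library labelled LPS cPLA_2_ WT replicate 2 (0.162), and without that last library *Hsf1* passed (-0.26, adjusted p = 0.0212). It was lost as well with TMM (*Hspd1* at -0.13, adjusted p = 0.0557), edgeR (-0.08, 0.235) and DESeq2 (-0.12, 0.084). With all libraries scaled to the same total the median change of all genes moved to 0.26 (cPLA_2_ WT) and 0.46 (cPLA_2_ KO), and the sign turned for *Hspd1* in both (0.14 and 0.27) and for *Hsf1* (0.43 in cPLA_2_ KO, with 0.10 in cPLA_2_ WT), while the other members remained below 0, *Hsph1* in cPLA_2_ KO without passing the test (-0.08, adjusted p = 0.254). In cPLA_2_ WT this scaling gave 0 members higher and 8 lower, where 7353 of all genes were higher and 2455 lower. In cPLA_2_ KO it gave 2 higher and 7 lower, where 9611 of all genes were higher and 2814 lower.

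*Hspa1a* and *Hspa1b* share most of their sequence, so reads from one can be counted for the other, and how such reads were treated is not given in the sources used here. Their coding sequences of 1923 and 1926 bases (RefSeq) differed at 10 of 1926 aligned positions (99.5% identical), with a longest identical stretch of 638 bases. The genes are therefore also given as a sum, which does not depend on how reads were split between them. Any reads left out because they match both genes would be missing from the sum as well. Nonconfined cPLA_2_ WT had a sum of 433 ± 17.3 normalized counts (SD, n = 3) and nonconfined cPLA_2_ KO 441 ± 43.9. After confinement it was 1960 ± 2.35 for cPLA_2_ WT and 1283 ± 108 for cPLA_2_ KO, and it was 6156 ± 351 and 6164 ± 410 in the libraries labelled LPS cPLA_2_ WT and LPS cPLA_2_ KO. The 3 confined cPLA_2_ WT libraries lay closest together. The sum was lowest in nonconfined libraries, higher in confined and highest in LPS libraries, as for each gene alone. The ratio of *Hspa1b* to *Hspa1a* was 2.14, 1.65 and 1.96 in nonconfined cPLA_2_ WT, 1.77, 1.48 and 1.43 in nonconfined cPLA_2_ KO libraries. Confinement left it at 1.13, 1.07 and 1.12 for cPLA_2_ WT and 1.19, 1.05 and 1.01 for cPLA_2_ KO. It was thus lower in every confined library than in every nonconfined one. In the libraries labelled LPS cPLA_2_ WT it was 1.28, 1.55 and 1.27, and in those labelled LPS cPLA_2_ KO 1.65, 1.35 and 1.23.

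Promoter sequences of 300 bases, 250 of them before the start site, were taken from the RefSeq table of build GRCm38.p6, which differs from the GRCm39 of the coordinates above. It gave 11 promoters for 6 of the 10 members, *Hspa1a*, *Hspa1b*, *Hsph1*, *Dnajb1*, *Dnaja1* and *Hspd1*. Those of *Hsf1*, *Hspa8*, *Hsp90aa1* and *Hsp90ab1* were not used here. The motifs searched were pairs of inverted units of the kind HSF1 is known to bind, GAANNTTC and TTCNNGAA, each the same on both strands, and runs of 3 units, GAANNTTCNNGAA and its reverse complement TTCNNGAANNTTC, each of which contains 1 of either pair. A pair was found in 6 promoters of 5 members, all but *Dnajb1*, and a run of 3 units in *Hsph1* and *Hspd1*. Of 32851 promoters of the same length, 7.86% held GAANNTTC, 8.52% held TTCNNGAA and 15.1% held either, whereas 0.310% held GAANNTTCNNGAA, 0.320% held TTCNNGAANNTTC and 0.603% held either run. The 250 bases before the start site are shown for the inducible HSP70 pair, whose transcripts rose most, and for the second start site of *Hspd1*, whose transcript fell. The capitals mark the bases of matches, and a match describes letters only and says nothing of whether the factor was bound. *Hspa1a* is at chr17:34972157-34972406, *Hspa1b* at chr17:34959239-34959488 and *Hspd1* at chr1:55087933-55088182, all on the minus strand and written 5′ to 3′.
Hspa1a: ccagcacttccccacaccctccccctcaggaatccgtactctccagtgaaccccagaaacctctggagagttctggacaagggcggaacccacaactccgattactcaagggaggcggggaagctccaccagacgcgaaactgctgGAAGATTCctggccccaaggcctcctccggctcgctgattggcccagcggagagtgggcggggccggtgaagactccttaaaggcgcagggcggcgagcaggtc
Hspa1b: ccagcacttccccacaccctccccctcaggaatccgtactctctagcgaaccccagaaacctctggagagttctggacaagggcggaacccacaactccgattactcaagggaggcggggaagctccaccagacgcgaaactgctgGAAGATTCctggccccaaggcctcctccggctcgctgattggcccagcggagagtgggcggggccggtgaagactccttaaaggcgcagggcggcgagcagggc
Hspd1: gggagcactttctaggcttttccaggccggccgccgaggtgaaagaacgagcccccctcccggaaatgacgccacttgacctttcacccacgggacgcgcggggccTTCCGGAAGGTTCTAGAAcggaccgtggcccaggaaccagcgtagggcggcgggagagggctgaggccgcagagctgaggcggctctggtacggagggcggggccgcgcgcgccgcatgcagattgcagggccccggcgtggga

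The match in both HSP70 promoters was GAAGATTC, at chr17:34972253-34972260 for *Hspa1a* and chr17:34959335-34959342 for *Hspa1b*, in each 104 to 97 bases before the start site. These 250 bases differed between the genes at 3 positions (98.8% identical), with a longest identical stretch of 201 bases, which makes them nearly as alike as the coding sequences. In *Hspd1* the overlapping runs GAAGGTTCTAGAA (chr1:55088059-55088071) and TTCCGGAAGGTTC (chr1:55088064-55088076) lay 144 to 127 bases before the second start site. *Hsph1* held TTCTCGAA at chr5:149636362-149636369, 33 to 26 bases before its first start site, and TTCTGGAAAGTTC at chr5:149636288-149636300, after that site. *Dnaja1* held GAAAATTC at chr4:40722344-40722351, 124 to 117 bases before its first start site. Members with a match thus included genes that rose and genes that fell with confinement.

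Other genes of the chaperone network were read from 6 lists. The list of other HSF and heat shock inducible genes held 26, of which 24 were tested, since *Hspb1* (at most 15.5 normalized counts in a library) and *Hspb8* (at most 5.60) were too low. With confinement 11 rose and 6 fell in cPLA_2_ WT cells (median 0.21), where 28.2% of all genes tested rose and 28.4% fell, and 8 rose and 6 fell in cPLA_2_ KO cells (median 0.02), where 22.8% and 23.4% of all genes did. *Dnajb4*, a J-domain partner of HSP70, rose by 2.25 in cPLA_2_ WT (849 ± 9.74 against 178 ± 11.3 normalized counts, adjusted p = 4.44e-16) and by 1.70 in cPLA_2_ KO cells, *Dnajb2* by 1.37 in cPLA_2_ WT, and *Zfand2a*, an arsenite- and heat-inducible regulator of the proteasome, by 1.32 in cPLA_2_ KO. *Ahsa1*, an activator of the HSP90 ATPase, fell by 0.75 and *Chordc1*, an HSP90 binding protein, by 0.50 in cPLA_2_ WT, and *Hspe1*, the partner of HSP60, by 0.52 and *Hspa2* by 0.47 in cPLA_2_ KO cells. For the difference between the genotypes 1 gene of this list was higher and 7 lower (median -0.07), against 10.2% and 15.6% of all genes. In the libraries labelled LPS 13 rose and 7 fell under the cPLA_2_ WT label (median 0.44, against 33.4% and 29.4% of all genes) and 12 rose and 5 fell under the cPLA_2_ KO label (median 0.33, against 33.4% and 30.1%), with *Dnajb4* at 2.15, *Dnajb2* at 1.65, *Hspb6* at -0.75 and *Ahsa1* at -0.67 under the cPLA_2_ WT label. The counts of the lists that follow are to be read against these same shares of all genes. All list values use the size factors, and the lists were not read with all libraries scaled to the same total. For LPS that scaling moved the median change of all genes from 0.03 to -0.47 under the cPLA_2_ WT label. Under the cPLA_2_ KO label it moved from 0.02 to -0.44, so small positive list medians with LPS depend on the scaling.

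Cochaperones of HSP70 and HSP90 in the cytosol (35 tested) had 8 rising and 17 falling in confined cPLA_2_ WT (median -0.12, against 28.2% and 28.4% of all genes) and 5 rising and 12 falling in confined cPLA_2_ KO cells (median -0.06, against 22.8% and 23.4%). *Dnajb6* (0.83) and *Dnaja2* (0.75), both J-domain genes, rose most in cPLA_2_ WT, and *Fkbp4* (-1.37), an immunophilin of steroid receptor complexes, and *Dnajc9* (-1.08), a histone cochaperone, fell most. Among cPLA_2_ KO cells *Dnajb12* rose by 0.33 and *Dnaja2* by 0.32, while *Fkbp4* fell by 0.79 and *Dnajc9* by 0.64. For the difference 5 were higher and 5 lower (median 0.03). Under the LPS cPLA_2_ WT label 17 rose and 11 fell (median 0.13), led by *Dnajb6* (1.25) and *Sugt1* (0.91) and by *Dnajc9* (-1.81) and *Fkbp4* (-1.44), and under the LPS cPLA_2_ KO label 16 rose and 11 fell (median 0.07).

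The TRiC chaperonin and prefoldin, which fold actin and tubulin (14 tested), had 1 gene higher and 7 lower in confined cPLA_2_ WT (median -0.13, against 28.2% and 28.4% of all genes) and 1 higher and 11 lower in confined cPLA_2_ KO cells (median -0.20), with 0 higher and 2 lower for the difference (median -0.01). *Cct3* rose by 0.40 and *Cct5* and *Pfdn6* fell by 0.39 and 0.38 in cPLA_2_ WT, and *Pfdn1* rose by 0.15 and *Cct5* and *Pfdn5* fell by 0.35 and 0.28 in cPLA_2_ KO cells. With LPS 7 rose and 4 fell under the cPLA_2_ WT label (median 0.09), among them *Cct3* (1.27), *Vbp1* (0.57), *Pfdn1* (-0.27) and *Pfdn6* (-0.26), and 7 rose and 2 fell under the cPLA_2_ KO label (median 0.13). Among mitochondrial chaperones and proteases (11 tested), where *Hspd1* acts, 4 rose and 5 fell in confined cPLA_2_ WT (median -0.16, against 28.2% and 28.4% of all genes) and 4 rose and 2 fell in confined cPLA_2_ KO cells (median 0.11, against 22.8% and 23.4%), counts not far from the shares of all genes, with 2 higher and 1 lower for the difference (median 0.17). *Lonp1* (0.64) and *Clpx* (0.46) rose and *Trap1* (-0.70), the mitochondrial HSP90, and *Hscb* (-0.51) fell in cPLA_2_ WT, and *Hspa9* (0.44), the mitochondrial HSP70, and *Grpel2* (0.36) rose and *Hspe1* (-0.52) and *Trap1* (-0.45) fell in cPLA_2_ KO cells. With LPS 4 rose and 7 fell under the cPLA_2_ WT label (median -0.31, with *Lonp1* at 0.58, *Clpx* at 0.41, *Hscb* at -1.11 and *Clpp* at -0.69) and 4 rose and 6 fell under the cPLA_2_ KO label (median -0.34).

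Chaperones of the endoplasmic reticulum (17 tested) had none that rose with confinement in limma, with 0 higher and 12 lower in cPLA_2_ WT (median -0.43) and 0 higher and 14 lower in cPLA_2_ KO cells (median -0.45), and 0 higher and 3 lower for the difference (median -0.07). *Sdf2l1* fell by 1.15 and *Hyou1* by 0.59 in cPLA_2_ WT, and *Sdf2l1* by 1.09 and *Hspa5*, the HSP70 of this compartment, by 0.64 in cPLA_2_ KO cells. With LPS 5 rose and 10 fell under each label (medians -0.20 and -0.19), with *Dnajb9* at 0.75, *Dnajc10* at 0.52, *Sdf2l1* at -1.25 and *Pdia4* at -0.69 under the cPLA_2_ WT label. Immediate early genes, which answer quickly to many stimuli and to handling (17 tested), had 10 higher and 3 lower in confined cPLA_2_ WT (median 0.81) and 9 higher and 5 lower in confined cPLA_2_ KO cells (median 0.14), and 1 higher and 11 lower for the difference (median -0.57). Without confinement 6 of them were already higher and 0 lower in cPLA_2_ KO than in cPLA_2_ WT by limma (median 0.26, against 4.78% and 4.11% of all genes). *Dusp1* rose by 3.90 and *Fosb* by 3.12, and *Egr1* (-2.06) and *Egr3* (-0.60) fell in cPLA_2_ WT, while *Fosb* rose by 3.03 and *Dusp1* by 1.27, and *Egr1* (-2.63) and *Ier2* (-1.09) fell in cPLA_2_ KO cells. With LPS 12 rose and 5 fell under the cPLA_2_ WT label (median 0.74, *Dusp1* 3.12, *Atf3* 2.75, *Egr3* -1.92 and *Klf4* -1.50) and 9 rose and 6 fell under the cPLA_2_ KO label (median 0.20). No gene of the 6 lists differed between the LPS labels in limma, where 890 of all genes had an unadjusted p under 0.05 and edgeR and DESeq2 called 0.

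Across the 18 libraries the members fell into patterns that are given as description, since the libraries share conditions and 6 group means drive every value. *Hsp90aa1* and *Hsp90ab1* were most alike (Pearson r = 0.999 of the log2 values), followed by *Hspa1a* and *Hspa1b* (0.984), then *Dnajb1* with *Hsp90aa1* (0.969), *Hsp90ab1* (0.964) and *Dnaja1* (0.953), then *Dnaja1* with *Hsp90aa1* (0.946) and *Hsp90ab1* (0.944), and then *Hspa8* with *Hsph1* (0.941). *Hspa1a* and *Hspd1* ran in opposite directions (-0.697), and *Hsf1* was weakly related to *Hspa1a* (-0.379) and *Hspa1b* (-0.323). Of the genes that averaged 100 or more normalized counts, those most like *Hspa1a* were *Ccdc71l*, *Dusp4* and *Cxcl2* (r = 0.996 each), and those most like *Hspa1b* were *Btg1* (0.997), *Anxa7* (0.996) and *Cav1* (0.996). *Hspa8* was most like *Serpina3g* (0.985), *Tmem176b* (0.982) and *Nans* (0.981), and *Hsph1* most like *Adap1* (0.981), *Ahsa2* (0.974) and *Srebf1* (0.968). After each other, *Hsp90aa1* was closest to *Stk39* and *Actn1* (0.988 each) and *Hsp90ab1* to *Actn1* (0.989) and *AI662270* (0.988). *Dnajb1* was most like *Polr2d* (0.985), *Fam162a* (0.984) and *Ldha* (0.978), *Dnaja1* most like *Bst2* (0.980), *Car2* (0.977) and *Nmi* (0.975), and *Hspd1* most like *Uba2* (0.982), *D17H6S56E-5* (0.979) and *Srsf1* (0.979). *Hsf1* had the loosest match, with *Snx8* (0.920), *C1galt1c1* (0.918) and *Ptms* (0.886).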

How the data were processed

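Poly(A) RNA of mouse bone marrow DCs was sequenced in 18 strand-specific libraries made with either of a pair of kits, and which library used which is not given in the sources used here. Per the labels and the study's methods, the authors aligned reads with STAR 2.7.5a to mm39 (GRCm39), counted them per gene with featureCounts 1.5.0 on FAST DB and divided by DESeq2 size factors in R 3.5.3. The deposited values are therefore a signal, normalized counts. How reads with several matches were treated is not given in the sources used here, so *Hspa1a* and *Hspa1b*, and pseudogene copies of other chaperones, may share reads. Whole reads were recovered from the steps of the values, and 100% came out whole (tolerance 1e-06, largest deviation 2.68e-09).

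The members and lists were chosen with earlier results of these data known. Groups came from the labels. The 17875 genes that reached 10 normalized counts in 3 or more libraries were fitted with limma 3.58.1 (R 4.3.3, lmFit, contrasts.fit, eBayes with trend) on log2(normalized count + 1), with 6 condition means and all 18 libraries, so fold changes are on that scale and understate those of low genes. Benjamini-Hochberg adjustment ran over all genes tested within each of 10 comparisons, and genes with an adjusted p under 0.05 were called without a fold threshold. The fit was repeated with pseudocounts of 0.5 and 5, without the filter, with a filter at 100 normalized counts, with equal totals, TMM, edgeR 4.0.16 and DESeq2 1.42.0 on the recovered reads, only the conditions compared, a replicate block, each library left out and LPS genotype labels pooled. The fit without the libraries labelled LPS and the counts of calls with labels pooled were chosen after seeing the data. The scripts were tested on simulated data.

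Named genes were all members, the 3 genes most like each, the targeted gene and, of each of the 6 lists, up to 2 with the largest called rise and 2 with the largest called fall at a mean of at least 100 normalized counts in 3 comparisons. Of the table's genes, 37020 carry no symbol. The result of 1 further marker list is not reported here, and *Mpo*, *Cxcr2*, *Siglecf* and *Ccr3* were named after their values were seen. Replicates were compared before averaging. The spread between libraries of a condition was 2.81 to 8.96 times counting noise in 12 nonconfined and confined pairs and 4.29 to 9.94 in 6 LPS pairs. It was 3.31 to 9.63 in 9 LPS pairs across labels. Counting noise leaves out the spread of library preparation, so these ratios cannot show whether a pair came from the same sample. Sequencing was paired-end, and whether both reads of a fragment were counted is not given in the sources used here. If both were, they are not independent and all of these ratios are too high. All libraries were kept as separate. The closest pairs across labels, at 3.31 (cPLA_2_ WT replicate 3 with cPLA_2_ KO replicate 3), 3.38 (2 with 1) and 4.50 (1 with 2), were those that the Y chromosome genes match, and the closest pair of the same label was at 4.29. Whether they share a source of cells is not given in the sources used here, and if they do, the pooled fit counts it as separate libraries. Python 3.11.15, numpy 2.4.6, pandas 2.3.3, scipy 1.17.1 and matplotlib 3.10.9 were used for tables, sequences and figures.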

Additional observations from a re-analysis of the deposited data

Results flagged for a closer look

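For 3 members the change with confinement differed between the genotypes by the test of the difference itself, where 10.2% of all genes tested were higher and 15.6% lower. The confinement change in cPLA_2_ KO minus that in cPLA_2_ WT was -0.80 for *Hspa1a*, -0.54 for *Hspa1b* and -0.53 for *Dnaja1* on the log2 scale. *Hspa1a* and *Hspa1b* rose in both genotypes and by less in cPLA_2_ KO, and as nearly identical genes they may share reads, so they are not counted as independent. *Dnaja1* fell in cPLA_2_ KO and its cPLA_2_ WT libraries overlapped. With all libraries scaled to the same total *Dnaja1* no longer passed (-0.35, adjusted p = 0.0802), and 6 other members were called in the other direction, as were 4741 of the 17875 genes. Genotype and donor sex cannot be told apart in these libraries, and the cause was not tested.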

How the results depend on the processing

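Pseudocounts of 0.5 and 5 changed no call of a member in 100 values each, and no direction of a called change turned under any alternative but equal totals. With equal totals, *Hspa8* turned to -0.48 and -0.27 and *Hsph1* to -0.36 and -0.23 for LPS minus nonconfined under the cPLA_2_ WT and cPLA_2_ KO labels, *Hsp90ab1* to -0.14 under the cPLA_2_ WT label, *Hspd1* to 0.14 and 0.27 for confined minus LPS under the cPLA_2_ WT and cPLA_2_ KO labels, and *Hsf1* to 0.43 for confined minus LPS under the cPLA_2_ KO label. The same scaling gave 6 members higher for the difference between genotypes, 4 lower in nonconfined and 2 higher in confined cPLA_2_ KO against cPLA_2_ WT, 4 higher and 5 lower for LPS under the cPLA_2_ WT label, 5 higher and 4 lower under the cPLA_2_ KO label, and 2 higher for confined minus LPS under the cPLA_2_ KO label. All genes shifted with it, with 4741 of 17875 higher for the difference, 1045 lower in nonconfined and 6001 higher in confined cPLA_2_ KO against cPLA_2_ WT, 3182 higher and 9294 lower for LPS under the cPLA_2_ WT label, 3271 higher and 9190 lower under the cPLA_2_ KO label, and 9611 higher for confined minus LPS under the cPLA_2_ KO label. Mean normalized totals were 34125100 in nonconfined cPLA_2_ WT and 48718670 in the libraries labelled LPS cPLA_2_ WT, which this scaling makes equal. TMM gave 1 lower in nonconfined cPLA_2_ KO against cPLA_2_ WT (751 of all genes) and 2 lower for LPS under the cPLA_2_ KO label (5926 of all genes). For nonconfined cPLA_2_ KO against cPLA_2_ WT, the members lower numbered 0 without a filter (525 of all genes) and 4 with a filter of 100 normalized counts (796), with DESeq2 (962), with only the conditions compared (997) and with no libraries labelled LPS (1051). For confined cPLA_2_ KO against cPLA_2_ WT, 0 were higher without a filter (3132 of all genes) and with edgeR (2937), and 5 were lower with edgeR (3928), with only the conditions compared (3812) and with no libraries labelled LPS (3720). The last of these and the fit of only the conditions compared each gave 1 member higher for the difference between genotypes (2403 of all genes in both). With 1 library left out, members lower ranged from 6 to 7 with confinement of either genotype, from 0 to 1 in nonconfined cPLA_2_ KO against cPLA_2_ WT, from 1 to 2 for LPS under the cPLA_2_ KO label and from 8 to 9 for confined minus LPS under the cPLA_2_ WT label, and members higher from 0 to 1 for the difference, from 0 to 1 in confined cPLA_2_ KO against cPLA_2_ WT and from 6 to 7 for LPS under the cPLA_2_ WT label. The numbers of all genes called in these fits are not given here. The ranges therefore cannot tell a shift of the members from a shift of all genes. Whether libraries of the same replicate number are paired is not given in the labels, and with 3 libraries a condition the correlations of their deviations cannot decide it. In replicates 1, 2 and 3 these were 0.338, 0.208 and 0.0402 for confined cPLA_2_ KO and cPLA_2_ WT. For confined and nonconfined cPLA_2_ WT they were 0.183, 0.106 and -0.0638. In no comparison were all of them above 0.1, and the main fit was unpaired. With replicate as a block, 0 members (617 of all genes) were lower in nonconfined cPLA_2_ KO against cPLA_2_ WT, where *Hspa8* (adjusted p = 0.0632) and *Hsp90aa1* (adjusted p = 0.0554) were lost, and no other call changed. The cause of these shifts was not tested. With 3 libraries a condition, small differences may be missed.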
